A study of Homo sapiens with 12 samples.

Results

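The genes described here are 35 splicing regulators: 21 genes of the heterogeneous nuclear ribonucleoprotein (hnRNP) families other than the A/B and D types, 12 SR proteins and the 2 transformer-2 genes. They were chosen by name, with earlier results of these data known. Each of the 35 symbols matched 1 of the 60617 gene IDs in the deposited count tables. RNA was sequenced from 769-P cells, an established line from a human clear cell carcinoma of the kidney, in 4 groups of 3 libraries. The labels call the groups siDRAIC, siDRAIC-NC, sihnRNPA2B1 and sihnRNPA2B1-NC, that is, cells given a small interfering RNA (siRNA) to DRAIC, a long non-coding RNA, or to the RNA-binding protein hnRNPA2B1, and the NC group named with each. The sources used here give neither the meaning of NC nor the siRNA sequences or harvest time, and the NC groups are taken as the controls. All 4 groups share the line and the medium. Whether the 3 libraries of a group came from separate cultures is not stated, so a p-value here reflects only the variation among libraries, which may be technical. In bulk RNA, fewer cells with a transcript and less of it per cell cannot be told apart.

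HnRNPs are nuclear proteins that coat nascent transcripts, and many of them repress nearby exons when bound to introns or exons. SR proteins carry a domain rich in arginine and serine, bind exonic enhancers and recruit the spliceosome, so both classes act on exon choice, often in opposite directions. Many genes of both classes contain ultraconserved poison exons, through which the proteins hold their own RNA and that of their paralogs in check by nonsense-mediated decay. Counts per gene, as used here, add up all isoforms and cannot show exon choice.

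Library totals ran from 30798303 to 42760528 counts, and 34 of the 35 members had a count in every library. The exception, SRSF12, a small SR protein, had 1 summed count in siDRAIC, 2 in sihnRNPA2B1 and 0 in either control group, and was left untested by the low-count filter. A count of 0 allows up to 3 counts, or 0.0702 to 0.0974 CPM (counts scaled to a common library total) in 1 library, so SRSF12 RNA was not measurable at this depth. HNRNPA2B1 itself measured 286, 304 and 272 CPM after its siRNA against 431, 407 and 436 in the controls, a log2 fold change of -0.56 (SE 0.05, edgeR adjusted p = 2.16e-09). DRAIC had 9 summed counts in siDRAIC against 5 in its controls, a ratio of 1.76 with an exact interval from 0.531 to 6.70. At this depth a loss of DRAIC could not be detected, and that group is called the libraries labelled siDRAIC. Of 10 renal markers, 9 were at 1 CPM or more in every group while CA9, a hypoxia-induced marker of this carcinoma, was at or under 3 counts in every library. No blood, immune, endothelial or hepatocyte marker reached 1 CPM as a group mean. Of 4 neuronal markers 1 to 3 reached it, led by the neurofilament gene NEFL, with sums from 32.5 to 70.4 CPM over the 12 libraries, and of 4 fibroblast markers 1 to 2 did.

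Member RNAs differed widely in abundance. Per kilobase of annotated exons, HNRNPK, a poly(C)-binding hnRNP, had the highest level, 157 CPM per kb averaged over the 4 groups, before HNRNPF (122) and HNRNPC (116). HNRNPF binds G-rich tracts and HNRNPC binds uridine tracts in introns. At the other end stood SRSF12, then PTBP2, the neuronal paralog of the polypyrimidine tract-binding protein PTBP1, at 1.38 CPM per kb, and HNRNPLL, the hnRNP L paralog best known from activated T cells, at 4.53. By group mean HNRNPK was first in siDRAIC, sihnRNPA2B1-NC and sihnRNPA2B1, and HNRNPF was first in siDRAIC-NC. In siDRAIC-NC HNRNPF (149 ± 20.8 CPM per kb), HNRNPK (147 ± 11.1) and PTBP1 (137 ± 34.8) lay within their spread of each other, with SD over 3 libraries. The order among the top genes also depends on the length used: with the median length of coding transcripts HNRNPC, PTBP1 and HNRNPH1 came first. Above SRSF12 at the low end, SRSF8 then stood at 5.22 CPM per kb and PTBP2 at 5.86. HNRNPUL2 (6.98), PCBP1 (7.18) and HNRNPLL (10.6) came next. Per kilobase of annotated exons, PCBP1 lay below HNRNPLL in sihnRNPA2B1-NC (6.26 against 6.62) and in sihnRNPA2B1 (5.70 against 7.04). Overlaps with other genes sum to 52.2% of the annotated exon bases of PCBP1 and 44.1% of those of HNRNPUL2. Whether counting used strand is not known, so the places of these genes in the order are uncertain. In the plot of levels by library, not corrected for length, the tested members span from PCBP1 to HNRNPC.

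**Figure D1:**
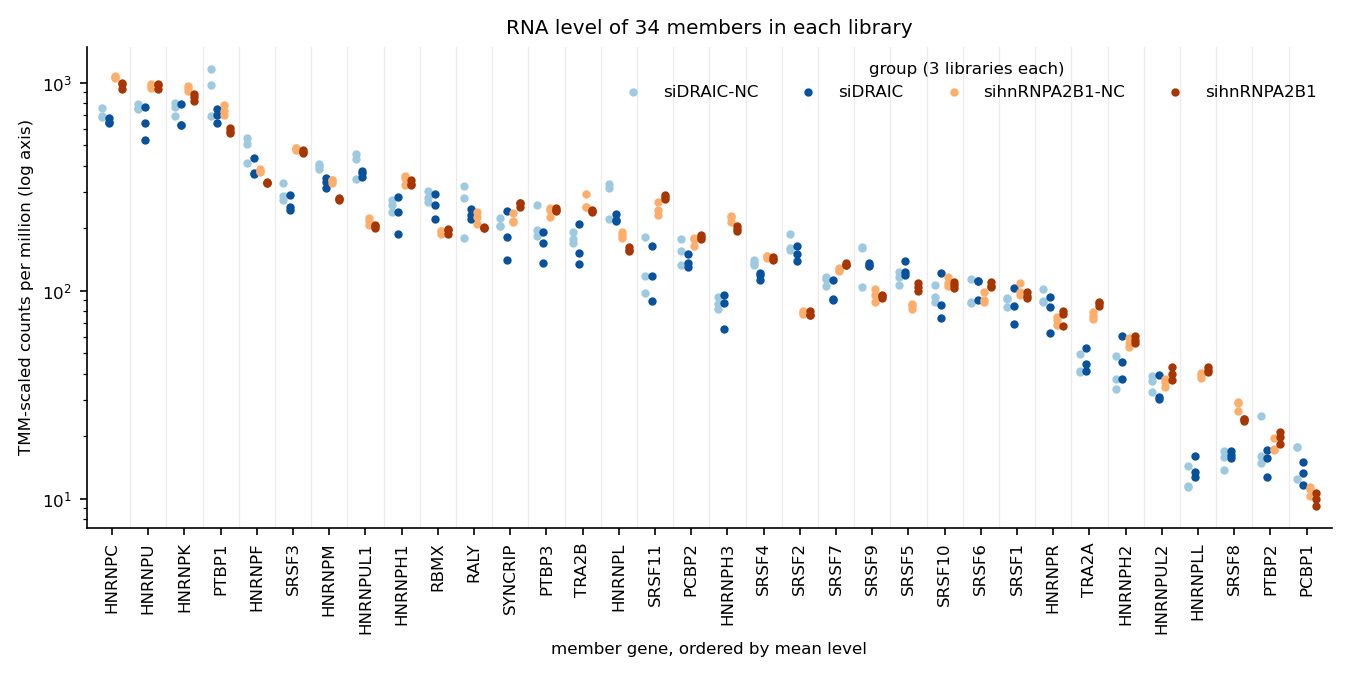
RNA level of the 34 tested members in each of 12 libraries, as TMM-scaled CPM on a log axis, with genes ordered by mean level and 1 point per library in 4 colours by group. HNRNPLL, HNRNPH3 and SRSF8 stand higher in both hnRNPA2B1 groups than in both DRAIC groups, and SRSF2 and HNRNPUL1 stand lower.

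Together the members took 0.788 ± 0.00839% of all counts in siDRAIC-NC and 0.716 ± 0.0619% in the libraries labelled siDRAIC, with SD over 3 libraries. They took 0.850 ± 0.0197% in sihnRNPA2B1-NC and 0.825 ± 0.00611% in sihnRNPA2B1. The 21 hnRNP genes held most of this, from 0.560% to 0.659% as group means. The spread between replicates was larger in the DRAIC experiment: the median coefficient of variation of the members was 10.3% in siDRAIC-NC and 12.8% in siDRAIC, against 4.60% in sihnRNPA2B1-NC and 2.51% in sihnRNPA2B1. Over all genes tested the same medians were 21.2%, 18.5%, 9.41% and 7.60%.

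After hnRNPA2B1 siRNA, PTBP1 and HNRNPM had the largest losses among the hnRNP genes, to 0.798 and 0.816 times their control level, and SRSF5 and SYNCRIP the largest gains of all members, to 1.23 and 1.17 times. Of the 34 tested members 15 were called, that is, had an adjusted p below 0.05 in edgeR's quasi-likelihood test: 5 rose and 10 fell. This is 44.1% of the members, where 30.4% of all 15710 tested genes were called, 15.1% higher and 15.4% lower. Among 21 hnRNP genes 1 rose and 8 fell, and among 13 tested SR and transformer-2 genes 4 rose and 2 fell. No member changed by as much as 2-fold. The median log2 fold change was -0.03 over the members and 0.01 over all genes. Groups did not overlap for 7 members on the higher side and 11 on the lower, where 21% and 21.4% of all genes did not, 42.5% in either direction.

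Of the PTB family, PTBP1 (ENSG00000011304, chr19:797075-812327 on hg38), which binds pyrimidine tracts and represses exons in non-neuronal cells, measured 576, 588 and 603 TMM-scaled CPM after the siRNA against 732, 785 and 698 in the controls. All 3 siRNA libraries lay below all 3 controls. The difference on the log2 scale came to -0.32 (SE 0.05, edgeR adjusted p = 1.28e-05). PTBP2 and PTBP3, paralogs with overlapping binding specificity, did not pass, at 0.13 (interval -0.05 to 0.32) and 0.03 (-0.08 to 0.14). Within each library PTBP3 had 43.4, 41.6 and 40.0 counts per 100 counts of PTBP1 after the siRNA and 33.3, 28.9 and 35.8 in the controls. PTBP2 had 3.18, 3.58 and 3.30 per 100 against 2.37, 2.19 and 2.80. Both ratios were higher in every siRNA library than in any control, and both hold the fall of PTBP1, their shared denominator. These ratios are not corrected for gene length and are compared only between groups. How often ratios of other gene pairs lie apart in this way was not counted.

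HNRNPM (ENSG00000099783, chr19:8444767-8489114), which binds GU-rich introns, measured 276, 278 and 273 CPM against 339.8, 341 and 331, with no overlap. It fell by 0.29 on the log2 scale (SE 0.05, edgeR adjusted p = 3.51e-05). HNRNPL, which binds CA repeats, measured 155, 157 and 162 CPM against 186, 192 and 178. Again every siRNA library was lower, with a log2 fold change of -0.23 (SE 0.05, edgeR adjusted p = 0.00141). Its paralog HNRNPLL did not pass (0.09, interval -0.05 to 0.23), although 40.7, 41.5 and 42.9 CPM lay above 39.6, 40.1 and 38.0. HNRNPLL had 26.4 ± 0.158 counts per 100 of HNRNPL after the siRNA and 21.1 ± 0.263 in the controls (SD, n = 3).

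HNRNPF measured 332, 330.3 and 329 CPM against 374, 377 and 384, and the control libraries were again the higher ones. It fell by 0.19 on the log2 scale (SE 0.05, edgeR adjusted p = 0.00286). The related HNRNPH3 fell by 0.17 (199 ± 5.17 against 223 ± 8.05 CPM, edgeR adjusted p = 0.0145). HNRNPH1 at -0.05 (interval -0.15 to 0.06) and HNRNPH2 at 0.05 (-0.08 to 0.18) did not pass. Of the uridine-binding pair, HNRNPC measured 970.2 ± 31.8 CPM against 1067 ± 13.3 and RALY 201 ± 0.639 against 225 ± 14.6. Both fell, by 0.14 (edgeR adjusted p = 0.0268) and 0.16 (0.0229). HNRNPK fell by 0.14 (849.8 ± 34.1 against 939 ± 25.9 CPM, edgeR adjusted p = 0.0247), while its KH-domain relatives PCBP1, at -0.13, and PCBP2, at 0.06, did not pass.

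SYNCRIP (ENSG00000135316, chr6:85607785-85643792), also called hnRNP Q, a factor of mRNA translation and decay, was the 1 hnRNP member that rose. Its level was 263, 265 and 253 CPM after the siRNA and 216, 214 and 236 in the controls, without overlap. It rose by 0.23 on the log2 scale (SE 0.05, edgeR adjusted p = 0.00126). Its closest relative HNRNPR stood at 0.06 (interval -0.07 to 0.19). The scaffold protein genes HNRNPU (0.01, interval -0.09 to 0.10), HNRNPUL1 (-0.08) and HNRNPUL2 (0.14), and RBMX, the X-linked hnRNP G gene (0.02), did not pass either.

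Among SR proteins SRSF5 (ENSG00000100650, chr14:69726900-69772005) had the largest change, with 109, 104 and 99.3 CPM after the siRNA and 85.6, 81.7 and 86.8 in the controls. The groups did not overlap, and the rise on the log2 scale was 0.30 (SE 0.06, edgeR adjusted p = 0.000206). SRSF6, of the same subfamily as SRSF5 and SRSF4, measured 106, 110.4 and 104 CPM against 90.6, 88.0 and 98.5, and rose by 0.21 (SE 0.06, edgeR adjusted p = 0.00691). SRSF11, an SR-related protein of the nuclear speckle, measured 282, 289.6 and 277 CPM against 243, 230.2 and 267. It rose by 0.20 (SE 0.05, edgeR adjusted p = 0.00598). SRSF8, a retrogene copy of SRSF2, fell by 0.23 (24.0 ± 0.252 against 28.2 ± 1.45 CPM, edgeR adjusted p = 0.0239). The other 7 tested SR genes, SRSF1, SRSF2, SRSF3, SRSF4, SRSF7, SRSF9 and SRSF10, did not pass, with log2 fold changes between -0.09 and 0.09.

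The 2 transformer-2 genes, activators of exons with GAA-rich enhancers, moved in opposite directions. TRA2A measured 87.2, 88.3 and 84.3 CPM against 76.0, 73.0 and 79.0 and rose by 0.19 (SE 0.06, edgeR adjusted p = 0.0146). TRA2B measured 238, 243 and 241 CPM against 254, 254 and 293 and fell by 0.15 (SE 0.06, edgeR adjusted p = 0.0421). TRA2A per 100 counts of TRA2B was 36.0 ± 0.850 after the siRNA and 28.5 ± 1.51 in the controls.

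Of the 15 calls, those of SRSF5, SYNCRIP, SRSF11, PTBP1, HNRNPM, HNRNPL and HNRNPF held without any 1 library. Fits without 1 library called 20.5% to 33.9% of all genes, against 30.4% with every library. Without sihnRNPA2B1-NC replicate 1 the calls of SRSF6 (edgeR adjusted p = 0.0523), TRA2A (0.0635), HNRNPH3 (0.0861), RALY (0.0906), HNRNPK (0.112), HNRNPC (0.116) and TRA2B (0.051) were lost. Without sihnRNPA2B1-NC replicate 2 those of RALY (edgeR adjusted p = 0.093) and SRSF8 (0.0561) were lost, and without sihnRNPA2B1-NC replicate 3 that of TRA2B (0.191, with a log2 fold change of -0.08). Without sihnRNPA2B1 replicate 1 the calls of TRA2A (edgeR adjusted p = 0.0566), HNRNPH3 (0.078), RALY (0.0735), SRSF8 (0.0778), HNRNPK (0.148), HNRNPC (0.144) and TRA2B (0.132) were lost. Without sihnRNPA2B1 replicate 2 the losses were SRSF6 (edgeR adjusted p = 0.0618), TRA2A (0.0856), HNRNPH3 (0.0769), RALY (0.0942), SRSF8 (0.0825), HNRNPK (0.0928), HNRNPC (0.0928) and TRA2B (0.106). Without sihnRNPA2B1 replicate 3 they were RALY (edgeR adjusted p = 0.0532), SRSF8 (0.0512) and TRA2B (0.0906). In 1 fit of all 12 libraries, which shares the wider spread of the DRAIC experiment, no member was called. Of all 17091 genes tested there 283 were called. In that fit 3 members had an unadjusted p below 0.05, and the share of all genes with such a p was not counted. There PTBP1 kept its estimate of -0.33 with an SE of 0.15 (edgeR adjusted p = 0.303).

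**Figure D2:**
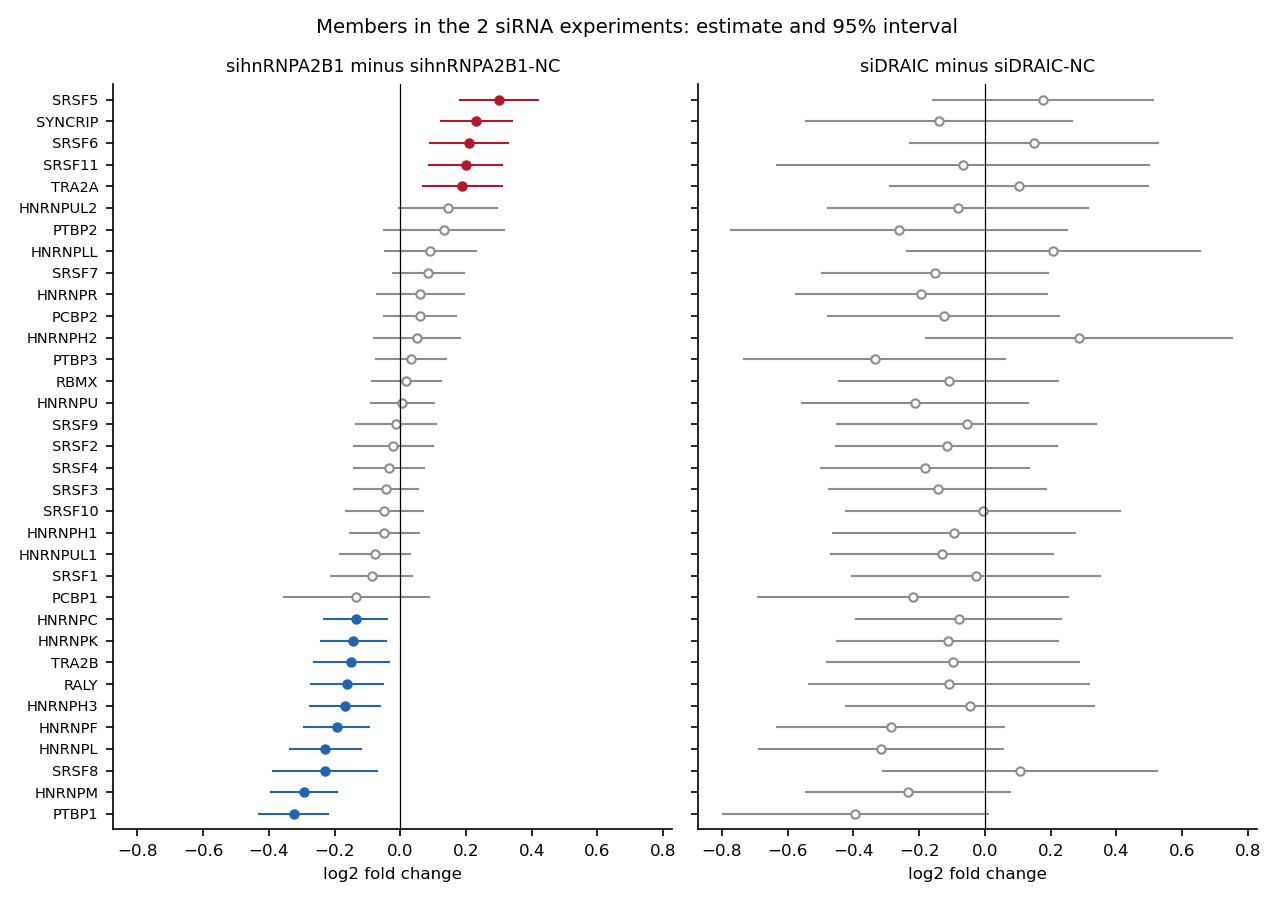
Log2 fold change of the 34 tested members with its 95% interval, after hnRNPA2B1 siRNA (left) and in the libraries labelled siDRAIC (right), each against its own controls, with genes in the order of the left panel. Filled red points were called higher, filled blue points were called lower and open grey points were not called; the 15 calls are all on the left, where the intervals are narrower.

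Promoter sequence is shown for some of the members called in each direction after hnRNPA2B1 siRNA, to give a reader the context of genes that moved apart. The 250 bases before the RefSeq start (GRCh38.p14) are printed 5′ to 3′ on the gene's strand, and only windows that overlap no GENCODE 29 exon were taken. Of the 5 called members with such a window, the 2 with the smallest p per direction are given. SRSF5, SRSF11 and HNRNPM had smaller p than some of these, but their windows overlap exons. Capitals mark a GC box (GGGCGG or its complement CCGCCC) or a CCAAT box (CCAAT or ATTGG). The windows are SYNCRIP at chr6:85643871-85644120 (minus strand), SRSF6 at chr20:43457646-43457895 (plus), PTBP1 at chr19:797734-797983 (plus, 1 of 2 RefSeq starts) and HNRNPL at chr19:38852348-38852597 (minus, 1 of 2). The PTBP1 window lies between exons of the annotated gene, and the other windows lie upstream of the annotated gene.
SYNCRIP: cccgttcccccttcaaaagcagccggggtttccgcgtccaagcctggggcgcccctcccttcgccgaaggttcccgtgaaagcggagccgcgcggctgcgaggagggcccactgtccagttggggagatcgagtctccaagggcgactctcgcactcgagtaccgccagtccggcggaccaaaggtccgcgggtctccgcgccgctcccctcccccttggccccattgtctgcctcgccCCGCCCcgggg
SRSF6: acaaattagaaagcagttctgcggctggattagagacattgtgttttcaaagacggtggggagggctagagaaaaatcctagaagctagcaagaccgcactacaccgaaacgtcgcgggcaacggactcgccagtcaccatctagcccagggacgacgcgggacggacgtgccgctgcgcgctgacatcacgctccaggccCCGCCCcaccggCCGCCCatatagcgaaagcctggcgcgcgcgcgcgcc
PTBP1: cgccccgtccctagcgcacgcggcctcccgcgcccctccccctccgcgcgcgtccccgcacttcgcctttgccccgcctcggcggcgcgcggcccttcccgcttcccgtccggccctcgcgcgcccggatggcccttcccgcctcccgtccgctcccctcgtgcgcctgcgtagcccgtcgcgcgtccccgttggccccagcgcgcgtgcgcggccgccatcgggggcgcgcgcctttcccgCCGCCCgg
HNRNPL: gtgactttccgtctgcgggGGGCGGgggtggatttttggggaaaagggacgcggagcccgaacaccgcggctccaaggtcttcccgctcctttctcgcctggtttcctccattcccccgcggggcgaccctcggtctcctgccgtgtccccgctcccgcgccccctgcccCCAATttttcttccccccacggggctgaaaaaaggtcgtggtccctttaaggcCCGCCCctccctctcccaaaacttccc

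SYNCRIP and SRSF6 rose and PTBP1 and HNRNPL fell, and all 4 windows hold a GC box. Their GC contents are 71.2%, 61.6%, 82.4% and 66%. The first base of the GC box lies 11 bases before the start in SYNCRIP, 49 and 37 in SRSF6, 8 in PTBP1 and 231 and 27 in HNRNPL, whose CCAAT box begins 80 bases before it. RefSeq windows were found for 33 of 35 members, 47 windows in all, and not for SRSF2 and TRA2A. A GC box was in 29 of the 47 (61.7%) and in 42.6% of all 35116 promoter windows of the same length. The median GC content was 65.2% over the member windows and 58% over all windows, and its part in these shares was not tested. A CCAAT box was in 18 of the 47 (38.3%) and in 32.0% of all windows. By gene, counting a match in any window, a CCAAT box was in 15 of the 33 members. It was in 0 of the 4 that rose and had a window and in 7 of the 10 that fell. Several genes that fell, and SRSF11 among those that rose, have more than 1 window and so more room for a match. The share by gene over all genes was not counted, and differences between the genes that rose and fell were not tested. The GC box was in 23 of the 33, in 2 of the 4 and 8 of the 10. TATAAA and CCGGAAG were each in 1 of the 4 and 1 of the 10, and CACGTG in 0 and 2. TATAAA was in 5 of 47 (10.6%) against 10.7% of all, CCGGAAG in 6 against 8.52% and CACGTG in 3 against 6.34%, on either strand. None of these motifs contains another, and a match is one of letters only.

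In the libraries labelled siDRAIC, no member passed the edgeR test, and 0 of 34 were called. Of all 15986 tested genes 0.713% were called, 0.582% higher and 0.131% lower. DESeq2 and limma-voom also called 0 members, where they called 2.43% and 0.28% of all genes. An unadjusted p below 0.05 in edgeR was found for 0 of the 34 members and for 1713 of the 15986 genes. Estimates lay below 0 for 28 members, with a median log2 fold change of -0.11, where 50.5% of all genes lay below 0 with a median near 0. Without siDRAIC replicate 3 the members' median was -0.19, and without each other library it lay between -0.14 and -0.08. The members share libraries, so these signs are not independent of each other. The range was -0.39 for PTBP1 to 0.29 for HNRNPH2. Groups did not overlap for 3 members, HNRNPC, HNRNPM and SRSF4, all lower, where 6.22% of all genes did not overlap on the lower side, 8.51% on the higher and 14.7% in all. Beside this, the fibroblast collagen gene COL1A1 rose from 2.62 ± 1.48 to 9.68 ± 2.98 CPM (edgeR adjusted p = 0.0462) and CDH6, a kidney cadherin, from 111 ± 11.5 to 200.1 ± 20.1 (0.0381). Of 4 fibroblast markers 2 were at 1 CPM or more in both groups, DCN was at or under 3 counts, and their sum ran from 2.77 to 6.26 CPM in the controls and from 10.2 to 17.8 in siDRAIC. The 4 neuronal markers summed to 50.5 to 70.4 CPM in the controls and to 32.5 to 34.7 in siDRAIC, without overlap; NEFL averaged 56.8 and 30.4 CPM, ELAVL3 was at or under 3 counts in the controls, and 0 of the 3 tested were called, with 2 at an unadjusted p below 0.05 in edgeR. The part of these genes in the members' estimates was not tested.

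PTBP1 measured 644, 703 and 749 CPM in the libraries labelled siDRAIC against 689.9, 1166 and 972 in the controls. Control replicate 1 lay within the siDRAIC range and the other controls above it. The estimate on the log2 scale was -0.39 (SE 0.19, edgeR adjusted p = 0.476). Without siDRAIC-NC replicate 1 it was -0.57 and was called (edgeR adjusted p = 0.0314), the 1 member called under any alternative in this experiment. That fit called 6.26% of 16535 genes, against 0.713% with all libraries. Without siDRAIC-NC replicate 2 the PTBP1 estimate was -0.25 (edgeR adjusted p = 0.89). HNRNPL measured 219.5, 234 and 218 CPM against 221, 325 and 312, a pattern in which control replicate 1 was also low (-0.32, SE 0.17, edgeR adjusted p = 0.542). PTBP3 measured 191, 136 and 169.7 CPM against 259, 184 and 196 (-0.34, SE 0.18, edgeR adjusted p = 0.546), and HNRNPF 367, 364 and 435 against 409.6, 507 and 539.6 (-0.29, SE 0.16, edgeR adjusted p = 0.556). Both pairs of groups overlapped. Without siDRAIC-NC replicate 1 the PTBP3 estimate was -0.16 (edgeR adjusted p = 0.587). Within each of the 3 same-numbered pairs, PTBP1, HNRNPL, PTBP3 and HNRNPF were lower in the library labelled siDRAIC. HNRNPL hardly differed in pair 1 (219.5 against 221 CPM). These genes were chosen by the smallest p of this same comparison. Other members, HNRNPC, HNRNPM and SRSF4 among them, were lower in each pair too, while SRSF5 was higher in each. The share of all genes lower in each pair was not counted. With the replicate block 0 members were called and 4 had an unadjusted p below 0.05, where 8.78% of all genes were called, with PTBP1 at -0.37 (edgeR adjusted p = 0.0832). In the fit of all 12 libraries 0 members were called and 7 had an unadjusted p below 0.05, where 3.89% of all genes were called. There PTBP1 stood at -0.43 (SE 0.145, edgeR adjusted p = 0.111). The share of all genes with such an unadjusted p was not counted in either fit.

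Replicates of the DRAIC experiment departed from their group means across many members together. In siDRAIC replicate 3, 25 of 34 members lay above the group mean, and in siDRAIC replicate 2, 9 of 34. SRSF11 illustrates the spread: 165, 88.9 and 118 CPM in siDRAIC and 181, 118 and 97.9 in siDRAIC-NC. In siDRAIC-NC replicate 1 the members' deviations ran against the GC content of their transcripts (Spearman's rho = -0.62 over 34 members, -0.57 over 16886 genes), and in siDRAIC-NC replicate 2 with it (0.65 and 0.46). In the hnRNPA2B1 experiment the largest such value was -0.65 over members, in sihnRNPA2B1-NC replicate 3, on deviations of much smaller size. Its part in the fold changes was not tested.

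**Figure D3:**
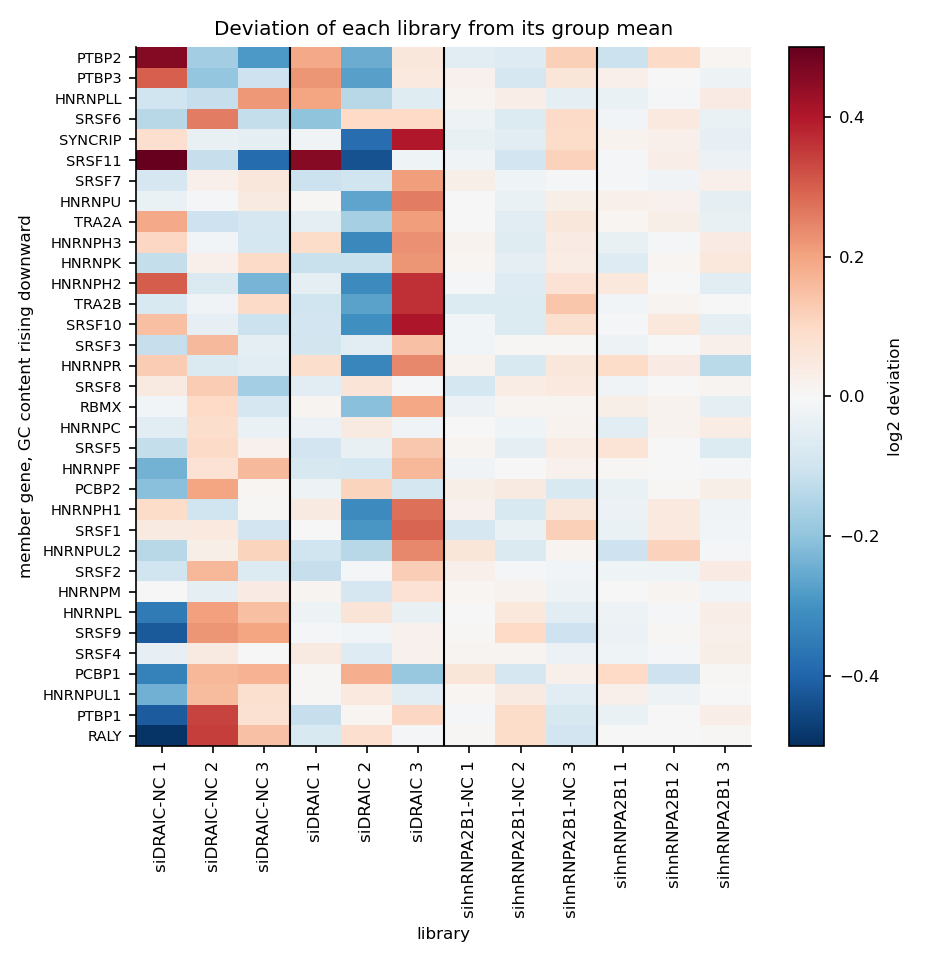
Log2 deviation of each library from its group mean for the 34 tested members (rows, ordered by GC content rising downward) in 12 libraries (columns, black lines between groups), red above and blue below the mean. The 6 libraries of the DRAIC experiment show stronger colours, with siDRAIC-NC replicate 1 red at low GC and blue at high GC, than the 6 of the hnRNPA2B1 experiment.

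Whether the 2 siRNAs moved a member by different amounts was tested on all 12 libraries, as the siDRAIC effect minus the hnRNPA2B1 effect. No member passed: 0 of 34 were called by edgeR, DESeq2 or limma-voom, where edgeR called 0.211% of 17091 genes. An unadjusted p below 0.05 in edgeR was found for 0 of the 34 members and for 1561 of the 17091 genes. The smallest p-values were those of PTBP3 (-0.39, interval -0.81 to 0.02, edgeR adjusted p = 0.584), SYNCRIP (-0.40, -0.84 to 0.05, 0.61) and SRSF7 (-0.27, -0.59 to 0.05, 0.636). Single libraries moved these values: PTBP3 was -0.23 without siDRAIC-NC replicate 1 and -0.25 without siDRAIC replicate 2. SYNCRIP was -0.21 without siDRAIC replicate 2 and -0.62 without siDRAIC replicate 3, and SRSF7 was -0.18 without siDRAIC replicate 1. PTBP1, lower in both experiments by estimate, differed by -0.11 (interval -0.54 to 0.33). The intervals leave room for differences larger than the changes seen after hnRNPA2B1 siRNA. Of the 10 members that fell after hnRNPA2B1 siRNA, 9 had estimates below 0 in the libraries labelled siDRAIC, as did 17 of the 19 uncalled members. Of the 5 that rose, 3 had estimates above 0 there: SRSF5 (0.18), SRSF6 (0.15) and TRA2A (0.10). The 2 experiments share no libraries.

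Member RNAs also differed between the control groups, 3 of them by 2-fold or more. HNRNPLL was 3.15-fold and HNRNPH3 2.56-fold higher in sihnRNPA2B1-NC than in siDRAIC-NC, and SRSF2 was at 0.466 times its level. Of 34 members 22 were called (64.7%), 12 higher and 10 lower in sihnRNPA2B1-NC, where 51.6% of 17091 genes were called (25% higher, 26.6% lower). Groups did not overlap for 15 members on the higher side and 10 on the lower, against 29.5% and 28.6% of all genes, 58.1% in all. The median log2 difference was 0.13 over the members and -0.02 over all genes. These are controls of separate experiments, so the siRNA control used, culture, date and library preparation cannot be told apart. Other genes differed too: HNRNPA2B1 measured 425 ± 15.5 against 792 ± 65.3 CPM, CDH6 8.09 ± 0.756 against 111 ± 11.5, and the 10 renal markers summed to 2020 to 2140 against 3088 to 4080 CPM, given as lowest and highest library. Of the 9 renal markers tested 1 was higher and 6 were lower. Of 3 neuronal markers tested NEFL (38.5 ± 1.31 against 56.8 ± 10.1 CPM, edgeR adjusted p = 0.00244) and TUBB3 (0.911 ± 0.0732 against 2.65 ± 0.654, 0.00023) were lower, and the 4 summed to 38.8 to 41.4 against 50.5 to 70.4 CPM. Their part in the members' differences was not tested.

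HNRNPLL (ENSG00000143889, chr2:38561978-38603586) measured 39.6, 40.1 and 38.0 CPM in sihnRNPA2B1-NC and 11.5, 11.4 and 14.4 in siDRAIC-NC. The groups lay far apart, with a log2 difference of 1.65 (SE 0.13, edgeR adjusted p = 1.22e-07). Its paralog HNRNPL went the opposite way, with 186, 192 and 178 CPM against 221, 325 and 312 (-0.63, SE 0.13, edgeR adjusted p = 0.00072). HNRNPLL per 100 counts of HNRNPL was 21.1 ± 0.263 against 4.45 ± 0.861. In the libraries labelled siDRAIC the ratio was 6.31 ± 0.944, and after hnRNPA2B1 siRNA 26.4 ± 0.158, so the experiments stood apart by more than either siRNA group from its control.

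In the F/H family HNRNPH3 (ENSG00000096746, chr10:68331174-68343191) measured 226, 214 and 229.6 CPM against 93.5, 86.2 and 82.0. Every sihnRNPA2B1-NC library was more than 2 times any siDRAIC-NC library, and the log2 difference was 1.36 (SE 0.13, edgeR adjusted p = 5.87e-07). HNRNPH1 (0.41, edgeR adjusted p = 0.0134) and HNRNPH2 (0.49, 0.0212) were also higher, and HNRNPF was lower (-0.36, edgeR adjusted p = 0.0138). HNRNPC was higher, with 1069.9, 1053 and 1079 CPM against 684, 755 and 695 (0.59, SE 0.09, edgeR adjusted p = 4.93e-05), while RALY did not pass (-0.20, interval -0.54 to 0.13). HNRNPUL1 measured 217, 223 and 208 CPM against 345, 454 and 429.6, with all libraries of sihnRNPA2B1-NC lower (-0.92, SE 0.11, edgeR adjusted p = 4.79e-06). HNRNPU was higher (0.33, edgeR adjusted p = 0.0224) and HNRNPUL2 was not called (0.00, interval -0.28 to 0.28).

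RBMX was lower at 188, 194 and 194 CPM against 281, 303 and 267 (-0.56, SE 0.11, edgeR adjusted p = 0.000485). PCBP1, a poly(C)-binding protein that also serves as an iron chaperone, was lower at 11.4, 10.3 and 11.1 CPM against 12.5, 17.7 and 17.8 (-0.54, SE 0.16, edgeR adjusted p = 0.0102). Its siDRAIC-NC replicate 1 lay near the other group, and 52.2% of its exon bases are shared with other genes. HNRNPK was higher (0.32, edgeR adjusted p = 0.0213), and HNRNPR (-0.37, 0.0318) and HNRNPM (-0.23, 0.0355) were lower. PTBP1 just missed the threshold (-0.35, edgeR adjusted p = 0.0539) and was called with RLE factors, DESeq2, no low-count filter, the stricter filter and without siDRAIC-NC replicate 1.

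Among SR proteins SRSF2 (ENSG00000161547, chr17:76734115-76737374), an exon-enhancer binding protein of the speckle, measured 79.8, 78.0 and 77.8 CPM against 157, 188 and 160.0. The groups did not overlap and the log2 difference was -1.10 (SE 0.11, edgeR adjusted p = 7.97e-07). Overlaps with other genes, chiefly MFSD11 on the opposite strand, sum to 39.9% of the annotated exon bases of SRSF2. No source used here tells whether counting used strand. SRSF3, the smallest SR protein, went the other way, with 477, 484 and 484 CPM against 273, 331 and 286 (0.70, SE 0.10, edgeR adjusted p = 4.24e-05). SRSF2 had 16.3 ± 0.368 counts per 100 of SRSF3 in sihnRNPA2B1-NC and 56.7 ± 0.691 in siDRAIC-NC. Each siRNA group lay near its own control, at 16.6 ± 0.211 and 57.8 ± 1.58.

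SRSF8 was higher, at 26.5, 28.9 and 29.1 CPM against 16.0, 16.9 and 13.8 (0.86, SE 0.12, edgeR adjusted p = 2.8e-05). SRSF11 was higher too, at 243, 230.2 and 267 CPM against 181, 118 and 97.9 (0.90, SE 0.21, edgeR adjusted p = 0.0028). SRSF5 was lower, at 85.6, 81.7 and 86.8 CPM against 106, 123 and 117 (-0.45, SE 0.10, edgeR adjusted p = 0.00234). SRSF9 was lower at 95.3, 102 and 88.5 CPM against 104, 163 and 159.7 (-0.58, SE 0.14, edgeR adjusted p = 0.00309), with siDRAIC-NC replicate 1 close to the other group, and 46.2% of its exon bases are shared with other genes. Both transformer-2 genes were higher, TRA2A at 76.0 ± 3.04 against 44.0 ± 5.15 CPM (0.79, SE 0.12, edgeR adjusted p = 8.34e-05) and TRA2B at 267 ± 22.7 against 180.3 ± 11.2 (0.57, SE 0.14, edgeR adjusted p = 0.00306).

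Between the controls 15 of the 22 calls were kept in each of 12 fits without 1 library. These fits called 42.15% to 55.18% of all genes, against 51.6% with every library. Without siDRAIC-NC replicate 1 that of HNRNPR was lost (edgeR adjusted p = 0.065) and PTBP1, PTBP3 and RALY were called besides. Without siDRAIC-NC replicate 2 HNRNPH1 (edgeR adjusted p = 0.0505), HNRNPH2 (0.0679) and HNRNPU (0.0506) were lost, and without siDRAIC-NC replicate 3 HNRNPF (0.0767), HNRNPH2 (0.0978) and HNRNPM (0.102). Without sihnRNPA2B1-NC replicate 1 HNRNPF (edgeR adjusted p = 0.0502), HNRNPK (0.0611), HNRNPU (0.0589), HNRNPR (0.0756) and HNRNPM (0.0934) were lost. Leaving out sihnRNPA2B1-NC replicate 2 lost HNRNPR (edgeR adjusted p = 0.106) and HNRNPM (0.0834), and leaving out replicate 3 lost HNRNPH2 (0.0676), HNRNPK (0.0691), HNRNPU (0.0678), HNRNPR (0.0596) and HNRNPM (0.115). HNRNPM also missed the threshold without siDRAIC replicate 1 (edgeR adjusted p = 0.0586) or sihnRNPA2B1 replicate 1 (0.0593), 2 (0.0626) or 3 (0.0605), which enter only the shared spread.

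**Figure D4:**
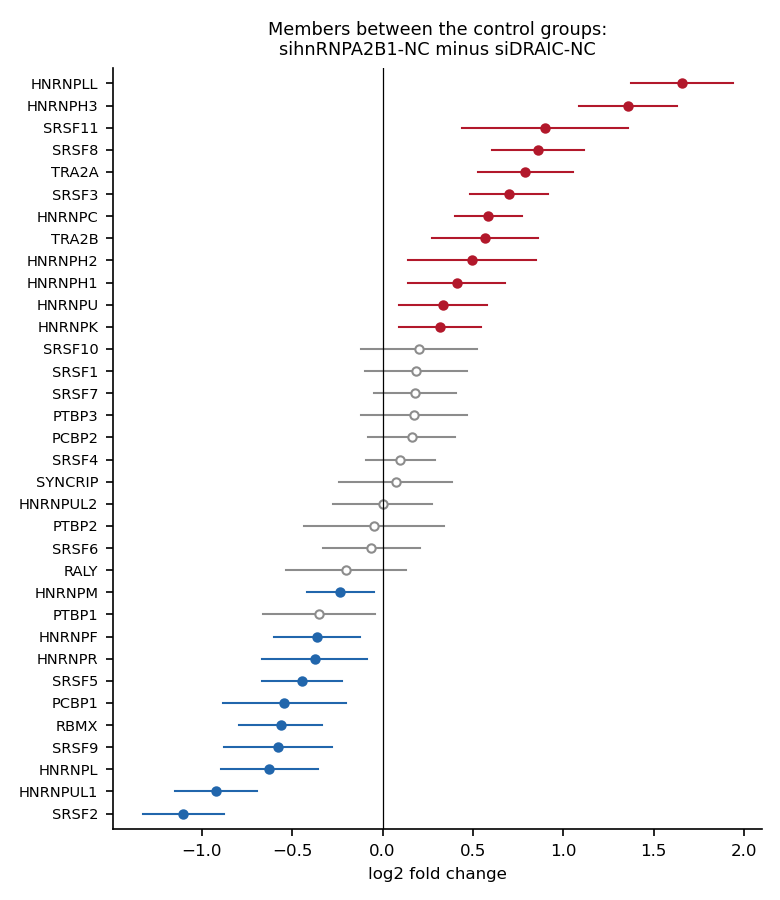
Log2 difference of the 34 tested members between the control groups (sihnRNPA2B1-NC minus siDRAIC-NC, 3 libraries each, from the fit of 12 libraries), with its 95% interval. Filled red and blue points mark the 12 members called higher and the 10 called lower, and paralogs such as HNRNPLL and HNRNPL lie on opposite sides.

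The members' changes went with the GC content of their transcripts. Over the 34 members Spearman's rho of log2 fold change on median GC content was -0.55 after hnRNPA2B1 siRNA and -0.57 between the control groups. Over all tested genes it was -0.20 and -0.26. In the libraries labelled siDRAIC it was -0.21 over members and -0.01 over all genes. These are correlations across genes of the same libraries and are given as descriptions. The 5 members that rose after hnRNPA2B1 siRNA had a median GC content of 40.7%, and the 10 that fell 46.6%. Between the controls the 12 higher members had a median of 42.0% and the 10 lower ones 52.8%. After the median log2 fold change of all genes in the same GC decile was subtracted, all 15 called members kept their sign after hnRNPA2B1 siRNA, from 0.07 to 0.25 for those that rose and from -0.29 to -0.08 for those that fell. All 22 members called between the controls kept theirs as well. For HNRNPK, HNRNPM and HNRNPU between the controls 0.02, -0.03 and 0.04 were left. Members called for the size of their change tend to keep its sign, and the remainders themselves were not tested. How much of each difference goes with GC content beyond this was not tested.

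**Figure D5:**
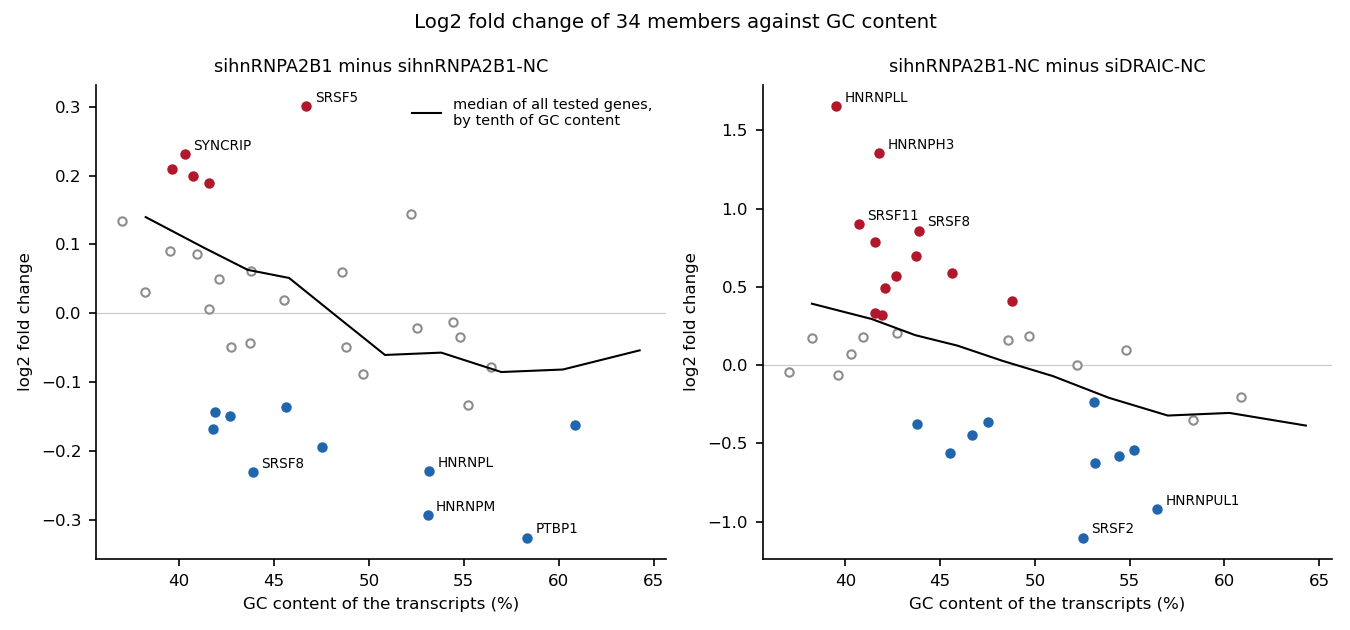
Log2 fold change of the 34 tested members against the median GC content of their coding transcripts, after hnRNPA2B1 siRNA (left) and between the control groups (right), with filled red and blue points for members called higher and lower, open points for the rest, and names for the 6 largest values per panel. The black line joins the medians of all tested genes by GC decile, which fall from 0.14 to -0.05 on the left and from 0.39 to -0.39 on the right.

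Genes that work with the members were counted from lists of their own, to be read against the 30.4% of all genes called after hnRNPA2B1 siRNA (15.1% higher, 15.4% lower) and the 51.6% called between the controls (25% higher, 26.6% lower). After hnRNPA2B1 siRNA, 0 of 20 core spliceosome genes rose and 7 fell, led by the Sm protein gene SNRPB (192 ± 15.6 against 245 ± 15.9 CPM, -0.35, edgeR adjusted p = 4.4e-05) and the U5 GTPase gene EFTUD2 (-0.28, 7.42e-05). Their median was -0.06. Of 17 tested other regulators of alternative splicing 5 rose and 0 fell, led by RBM25 (146.9 ± 11.8 against 117 ± 10.3 CPM, 0.34, edgeR adjusted p = 0.000179) and TIA1, which binds uridine-rich sites behind weak splice sites (0.28, 0.00382). The median was 0.04. Of 10 genes of SR protein kinases and import 2 rose, TNPO3, the importin of SR proteins (0.15, edgeR adjusted p = 0.0224), and the kinase SRPK2 (0.15, 0.0436). Of 10 nonsense-mediated decay genes 1 rose and 3 fell, led by the helicase UPF1 (-0.29, edgeR adjusted p = 0.000265) and SMG5 (-0.25, 0.000843). Of 8 hnRNP genes of the A/B and D types 2 rose and 2 fell, led by HNRNPA3 (0.62, edgeR adjusted p = 3.1e-10) and the targeted HNRNPA2B1.

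The medians of these last lists were 0.05, -0.04 and 0.01. In the libraries labelled siDRAIC none of these 65 tested genes was called by edgeR. There 1 core spliceosome gene and 1 of the A/B and D type had an unadjusted p below 0.05, as did 1713 of 15986 genes. The list medians there were -0.17 for the core spliceosome, -0.04 for the other regulators, -0.01 for kinases and import, -0.21 for decay factors and -0.24 for the A/B and D types. Between the control groups, the kinases CLK1 (1.74, edgeR adjusted p = 3.6e-07) and CLK4 (1.44, 2.41e-05), which phosphorylate SR proteins in the nucleus, were higher in sihnRNPA2B1-NC, with 6 higher and 2 lower of 10. SMG1, the kinase of UPF1, was higher (1.42, edgeR adjusted p = 4.37e-05), with 5 higher and 1 lower of 10 decay genes. Of 20 core spliceosome genes 6 were lower and 1 was higher, led by SNRNP70 (-0.83, edgeR adjusted p = 3.22e-05) and U2AF2 (-0.87, 0.000396). Of the other regulators 6 were higher and 4 lower, with KHDRBS1 lower (158.8 ± 3.11 against 317.5 ± 18.4 CPM, edgeR adjusted p = 4.32e-07) and QKI higher (1.08, 6.49e-06), and of the A/B and D type hnRNP genes 1 was higher and 6 lower. The list medians were 0.48 for kinases and import, 0.60 for decay factors, -0.23 for the core spliceosome, 0.27 for the other regulators and -0.66 for the A/B and D types, beside -0.02 over all genes.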

How the data were processed

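RNA of 12 libraries of 769-P cells was sequenced after preparation with RNAiso Plus and a TruSeq kit, per the labels' protocols. The deposited values are raw counts per Ensembl gene in 1 table per experiment. Per the submitters' processing notes, fastp 0.23.2, STAR 2.7.10a, DESeq2 and StringTie were used with hg38. No source used here names the counting program, its annotation or its use of strand, so overlapping genes and near-identical copies are uncertain. Exon overlaps summed over the other genes came to 69.8% of exon bases for SRSF1, 52.2% for PCBP1 and 46.2% for SRSF9. They came to 44.1% for HNRNPUL2, 39.9% for SRSF2 and 35.0% for PCBP2. A base shared with several genes counts for each of them. Annotated pseudogenes of the members held at most 0.390% of a member's counts.

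Symbols were paired with 60261 of 60617 IDs, and lengths, GC content and overlaps came from GENCODE 29 on GRCh38 (58542 IDs). The 6 libraries of an experiment formed 1 fit in edgeR 4.0.16 under R 4.3.3 (filterByExpr, minimum count 10, TMM factors, robust quasi-likelihood test, two-sided), with Benjamini-Hochberg adjustment over all tested genes and a threshold of 0.05. The difference of effects and the control groups were tested in 1 fit of 12 libraries. SE is the size of the log2 change divided by the root of F, and 95% intervals use the t quantile at edgeR's degrees of freedom. Levels are CPM scaled by TMM factors of all 12 libraries, as mean ± SD (n = 3), and precision is limited by totals of 30798303 to 42760528 counts and 3 libraries per group. The exact interval of the DRAIC ratio and the floors cover counting error only. The fits were tested on simulated data.

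The alternatives were RLE factors, DESeq2 1.42.0, limma-voom (limma 3.58.1), no low-count filter, 1 CPM in 3 libraries, the replicate block, all 12 or the 6 control libraries in 1 fit and each library left out. Deviations of same-numbered libraries correlated at 0.438, 0.198 and 0.249 in the DRAIC experiment, where the numbers are taken to pair the samples, and at -0.0153, -0.0207 and -0.0385 in the hnRNPA2B1 experiment, where they share only a number.

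The members, lists and naming rule were chosen with earlier results of these data known. Named members are the called ones up to 8 per direction by p (with fewer than 4 called, the 4 smallest p), the 3 smallest p for the difference of effects, the 3 highest and lowest per length, and the 2 smallest p of the called genes per other list. HNRNPC and TRA2B after hnRNPA2B1 siRNA, HNRNPH1, HNRNPH2, HNRNPK, HNRNPU, HNRNPR, HNRNPM and PTBP1 between the controls, and the uncalled paralogs, were named after their values were seen.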

Additional observations from a re-analysis of the deposited data

How the results depend on the processing

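No named member reversed its sign under any alternative. After hnRNPA2B1 siRNA, RLE factors, DESeq2, limma-voom and the 1 CPM filter kept all 15 calls, and without a low-count filter HNRNPC and TRA2B were lost (8 fell). Of all genes these fits called 29.6% to 36.7%, and 14.9% without the filter. The fit of all 12 libraries gave 0 members that rose and 0 that fell, where 1.66% of all genes were called. The replicate block, where the samples share only a number, left 6 that fell and 5 that rose, and called 28.1% of all genes. It lost HNRNPC (edgeR adjusted p = 0.0692), HNRNPK (0.058), RALY (0.0558) and TRA2B (0.0811). Leaving out 1 library gave 3 to 5 that rose and 4 to 9 that fell, where 20.5% to 33.9% of all genes were called. In the libraries labelled siDRAIC the replicate block, where the numbers are taken to pair the samples, gave 0 called members. It called 8.78% of all genes, against 0.713% in the main fit, which leaves such a pairing out. The fit of all 12 libraries gave 0 called members there too, where 3.89% of all genes were called. Leaving out 1 library gave 0 to 1 that fell, where 0.0542% to 6.26% of all genes were called. For the difference of effects 0 members were called under every alternative run, the replicate block included, where 0.0507% to 1.98% of all genes were. Between the control groups the counts were 12 higher and 10 lower, where 51.6% of all genes were called. The replicate block as a term shared by all groups was added after seeing the data. It gave 12 and 11, with PTBP1 called besides, and called 53.9% of all genes. With 1 library left out the counts were 9 to 13 and 7 to 11, where 42.15% to 55.18% of all genes were called. With 3 libraries per group the median SE of the members in the main fits was 0.17 in the DRAIC experiment and 0.05 in the hnRNPA2B1 experiment. Changes of the size called after hnRNPA2B1 siRNA were therefore not detectable in the main fit of the libraries labelled siDRAIC. With the replicate block the SE of PTBP1 there was 0.142, against 0.186 without it. Fits that leave a group with 2 libraries assume the same spread in all groups.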

Other observations

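Paralog pairs in which 1 gene was called and the other was not, or which were called in opposite directions, are set beside each other as within-library count ratios that are not corrected for length. HNRNPUL1 had 22.5 ± 1.27 counts per 100 of HNRNPU in sihnRNPA2B1-NC and 53.6 ± 6.92 in siDRAIC-NC (SD, n = 3). HNRNPH3 had 65.3 ± 0.780 per 100 of HNRNPH1 against 33.9 ± 2.07, and after hnRNPA2B1 siRNA 60.1 ± 2.27. SYNCRIP had 309 ± 10.2 per 100 of HNRNPR in sihnRNPA2B1-NC, 349 ± 21.0 after hnRNPA2B1 siRNA and 227 ± 6.44 in siDRAIC-NC. RALY had 21.1 ± 1.63 per 100 of HNRNPC in sihnRNPA2B1-NC and 36.2 ± 8.78 in siDRAIC-NC, where replicate 1 (26.2) lay well below the others (42.4 and 40.1). PCBP2 per 100 of HNRNPK, which itself fell, was 21.3 ± 0.406 after hnRNPA2B1 siRNA and 18.5 ± 1.29 in its controls, with no overlap. SRSF5 per 100 of SRSF6, which rose together, was 97.7 ± 4.97 and 91.8 ± 3.31 and lay at 121 ± 12.6 in siDRAIC-NC.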
